A study of Mus musculus with 7 samples.

Results

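The genes described here are 30 genes that oligodendrocytes switch on while they mature, from newly formed to myelinating cells, leaving out the main structural proteins of myelin. They were taken by gene symbol from a named list of maturation genes. All 30 were found among the 55450 genes in the files, and all 30 were among the 16813 genes with enough counts to be tested. They were measured by RNA sequencing of whole cerebella from C57BL/6 mice at postnatal day 15, with 3 wild-type (WT) cerebella and 4 from L3mbtl3 KO/+ mice, which are heterozygous for a disrupted allele of L3mbtl3. The L3MBTL3 protein binds methylated lysines, on histones among others. The labels give neither the disrupted stretch of the gene nor the litter or sex of the mice. No treatment is given for any mouse. Because nothing further is said about how the WT cerebella relate to one another, p-values measure only the spread between these libraries.

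Oligodendrocytes arise from dividing precursors, pass through a short premyelinating stage and then wrap axons with myelin, a compacted membrane rich in the lipid galactosylceramide. The transcription factor MYRF is required for the step to myelination and acts with SOX10, a factor of the same group as SOX8. In the mouse cerebellum myelination is under way in the weeks after birth, so a cerebellum of this age holds precursors, newly formed cells and myelinating cells side by side.

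In these 7 libraries the maturation genes varied together from cerebellum to cerebellum, and the genotypes were interleaved. None of the 30 genes differed between L3mbtl3 KO/+ and WT (edgeR quasi-likelihood test, Benjamini-Hochberg adjusted p from 0.957 to 0.998). The spread over the 7 libraries was wide: the highest library held at least 2 times the lowest for 21 of the 30 genes, as against 22% of all genes tested. Within WT alone this held for 11 of the 30 (12.3% of all genes), and within KO/+ alone for 14 (13.3%). Ermn and Mal, which belong to mature myelin, varied most, and the brain tubulin gene Tubb4a and the pteridine reductase gene Qdpr varied least. WT replicate 3 was the highest library for 27 of the 30 genes, and KO/+ replicate 4 the lowest for 26.

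Libraries held 29248342 to 43761782 counts, and each maturation gene had between 224 and 36646 counts in each library. Values below are CPM (a gene's counts relative to its library's total, after scaling for library composition), unless TPM, which also divide by transcript length, are named. L3mbtl3 itself measured 22.6, 26.8 and 23.2 CPM in WT and 19.7, 17.4, 22.3 and 23.0 CPM in KO/+, a mean of 85.2% of WT. The genotypes overlapped, and the difference did not pass (exact two-sided permutation p = 0.143 over 35 splits). WT replicate 3 stood apart in 8 genes of midbrain and thalamus, chosen after the data were seen. They summed to 94.0 CPM there and to 3.47 to 6.31 CPM in the other 6 libraries. Of the 94.0 CPM, 49.2 CPM was Tcf7l2, which is also on oligodendrocyte lists below. Only 2 of the 8 had enough counts to be tested. Tfap2d, a midbrain transcription factor gene among the 8, stood at 5.82 CPM in WT replicate 3 and had no counts in the other libraries. Fold changes of the maturation genes, and counts and medians of the other gene lists, are therefore also given without that library. Whether WT replicate 3 holds RNA from outside the cerebellum was not tested, nor was the part of such RNA in the maturation genes. In bulk tissue, fewer oligodendrocytes and less RNA per oligodendrocyte cannot be told apart.

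To show the DNA in front of the genes that varied most, the 250 bases before the start of Ermn, Mal, Apod and Opalin are printed here 5′ to 3′ on the gene's strand, from RefSeq on GRCm38.p6. All 4 genes lie on the minus strand, and these stretches are chr2:58052865-58053114 for Ermn, chr2:127656696-127656945 for Mal, chr16:31314809-31315058 for Apod and chr19:41077114-41077363 for Opalin. Capitals mark a SOX motif (ACAAAG or ACAATG), searched on both strands.
Ermn: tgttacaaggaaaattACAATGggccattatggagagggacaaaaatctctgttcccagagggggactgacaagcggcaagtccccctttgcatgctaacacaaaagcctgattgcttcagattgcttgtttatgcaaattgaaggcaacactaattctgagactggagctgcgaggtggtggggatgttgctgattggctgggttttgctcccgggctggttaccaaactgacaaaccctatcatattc
Mal: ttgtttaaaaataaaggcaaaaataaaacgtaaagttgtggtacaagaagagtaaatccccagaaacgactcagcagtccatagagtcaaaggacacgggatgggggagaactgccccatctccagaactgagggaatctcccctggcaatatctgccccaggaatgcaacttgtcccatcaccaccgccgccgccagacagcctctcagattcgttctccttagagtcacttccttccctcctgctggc
Apod: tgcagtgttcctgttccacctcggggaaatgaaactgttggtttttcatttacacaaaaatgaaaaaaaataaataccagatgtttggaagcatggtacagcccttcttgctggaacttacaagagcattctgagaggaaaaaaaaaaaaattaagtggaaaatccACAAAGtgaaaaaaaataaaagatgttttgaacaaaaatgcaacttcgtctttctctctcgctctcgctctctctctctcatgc
Opalin: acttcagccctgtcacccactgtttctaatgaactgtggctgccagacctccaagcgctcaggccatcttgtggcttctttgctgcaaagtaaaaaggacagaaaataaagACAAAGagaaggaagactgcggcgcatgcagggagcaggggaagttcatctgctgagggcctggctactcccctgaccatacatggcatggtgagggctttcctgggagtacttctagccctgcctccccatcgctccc
The Ermn stretch held ACAATG beginning 234 bases before the start, the Apod stretch ACAAAG at 84 bases and the Opalin stretch ACAAAG at 139 bases. No letters of the motif were found in the Mal stretch. Promoter windows of 300 bases, running from 250 before to 50 after the start, were matched for 22 of the 30 genes, which had 27 windows between them. A SOX motif was in 11 of these 27 windows (40.7%), and in 28.6% of all 32851 windows. A MYRF motif (CTGGCAC or CTGGTAC, both strands) was in 3 of the 27 (11.1%), those of Hapln2, Tmem125 and Opalin, and in 7.1% of all windows. For Opalin it lay outside the stretch printed above. No motif searched is contained in another, and a match describes the letters only.

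**Figure D1:**
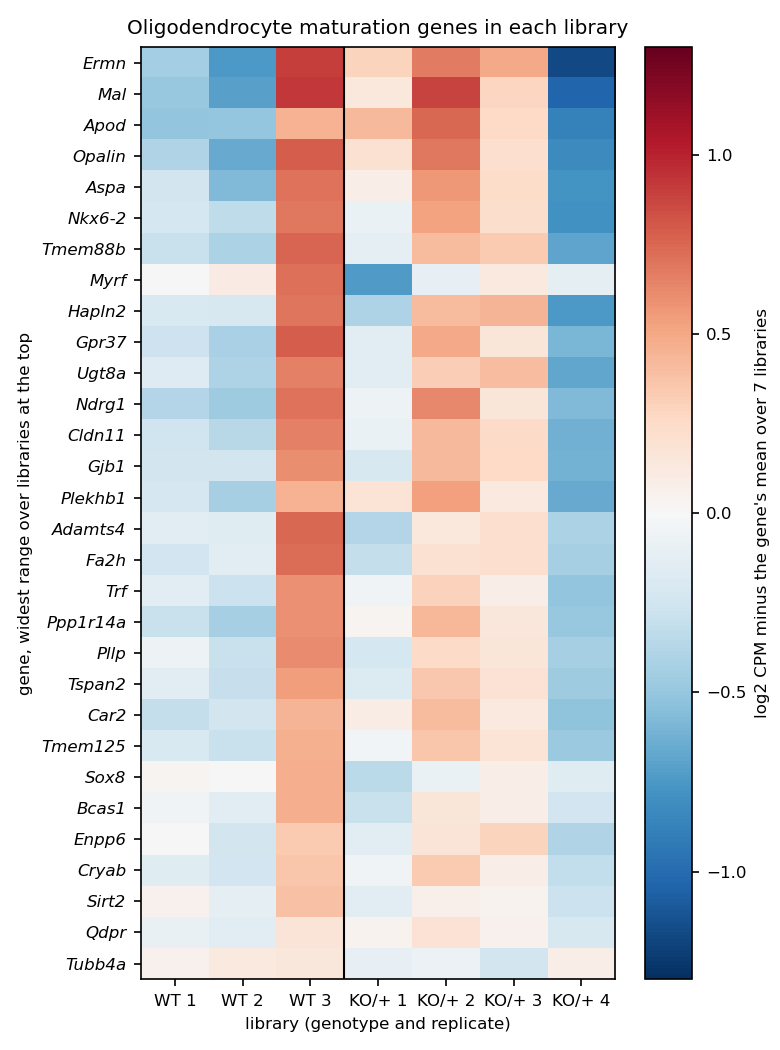
Level of each of the 30 maturation genes (rows, widest range at the top) in each library (columns, WT left of the line), as log2 CPM minus the gene's mean over 7 libraries. WT replicate 3 and KO/+ replicates 2 and 3 are mostly above the mean, and WT replicates 1 and 2 and KO/+ replicate 4 mostly below it.

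Of the 3 transcription factor genes, Myrf and Sox8 had the smallest unadjusted p of the 30. Myrf (chr19:10208272-10240748, minus strand, mm10) encodes the membrane-tethered factor that switches on the myelin programme. It measured 51.4, 55.2 and 84.1 CPM in WT replicates 1 to 3 and 30.8, 47.5, 55.9 and 46.9 CPM in KO/+ replicates 1 to 4. Myrf was high in WT replicate 3 and low in KO/+ replicate 1, and KO/+ replicate 3 lay above the lower WT libraries, so the genotypes overlapped. The log2 fold change of KO/+ against WT was -0.49 (SE 0.23), with a 95% interval from -1.01 to 0.03, and did not pass (edgeR unadjusted p = 0.062, adjusted p = 0.957). Without WT replicate 3 it was -0.24 (SE 0.20).

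Sox8 (chr17:25565892-25570686, minus strand), a group E SOX factor that works beside SOX10, measured 38.4, 37.7 and 51.9 CPM in WT and 29.4, 35.2, 39.9 and 33.6 CPM in KO/+. As with Myrf, WT replicate 3 was the highest and KO/+ replicate 1 the lowest library, and the genotypes overlapped through KO/+ replicate 3. The log2 fold change was -0.31 (SE 0.14; edgeR unadjusted p = 0.063, adjusted p = 0.957), and -0.14 without WT replicate 3. Nkx6-2, a homeodomain factor of myelinating oligodendrocytes, measured 12.1, 11.2 and 22.7 CPM in WT and 13.4, 20.4, 16.6 and 8.19 CPM in KO/+. Its order of libraries was that of the late genes below, with KO/+ replicate 4 lowest, and its log2 fold change was -0.06 (SE 0.34), or 0.33 without WT replicate 3. Thus Myrf and Sox8 were lowest in KO/+ replicate 1, while KO/+ replicate 4 was lowest for Nkx6-2. Nkx6-2 and Sox8 overlap genes on the opposite strand, Inpp5a at 363 CPM and 2810468N07Rik at 22.9 CPM. The strand setting of the counting is not given in the sources used here, so reads of the overlapping stretches may be shared.

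The genes of the premyelinating stage varied less. Enpp6, a choline-specific phosphodiesterase gene used as a marker of newly forming oligodendrocytes, measured 52.6, 44.7 and 66.9 CPM in WT and 47.6, 59.2, 64.5 and 40.3 CPM in KO/+. Bcas1, which marks oligodendrocytes at the onset of myelination, measured 141, 133 and 202 CPM in WT and 119, 163, 155 and 123 CPM in KO/+. WT replicate 3 was the highest library for both, and the genotypes overlapped over most of their range. Their highest libraries held 1.66 and 1.70 times their lowest. The log2 fold changes were -0.05 (SE 0.19) for Enpp6 and -0.18 (SE 0.17) for Bcas1, and 0.12 and 0.029 without WT replicate 3. Tmem88b, a transmembrane protein gene grouped with them, varied 2.73-fold over libraries, and its log2 fold change was -0.08, or 0.39 without WT replicate 3.

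Among the 8 genes of tetraspan and other membrane proteins the spread was wider, with a median of 2.38 for the highest over the lowest library. Mal (chr2:127633226-127656695), which encodes a proteolipid of compact myelin and its transport vesicles, measured 202, 175 and 538 CPM in WT and 313, 523, 345 and 139 CPM in KO/+. WT replicate 3 and KO/+ replicate 2 were close together at the top, WT replicates 1 and 2 and KO/+ replicate 4 made up the bottom, and the genotypes overlapped throughout. The log2 fold change was 0.11 (SE 0.50), with an interval from -1.02 to 1.25, and 0.81 without WT replicate 3 (SE 0.45, edgeR adjusted p = 0.598). Opalin (chr19:41061710-41077113), a membrane glycoprotein gene of mature central oligodendrocytes, measured 15.1, 12.5 and 34.1 CPM in WT and 22.7, 31.7, 22.9 and 11.1 CPM in KO/+. It had the same high and low libraries as Mal. Its log2 fold change was 0.10 (SE 0.41), or 0.68 when WT replicate 3 was left out.

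The other 6 membrane genes were Cldn11 (the claudin of myelin tight junctions), Tspan2 (a tetraspanin), Gjb1 (connexin 32 of gap junctions), Pllp (plasmolipin), Gpr37 (an orphan receptor of the oligodendrocyte lineage) and Tmem125. Their log2 fold changes ran from -0.18 for Pllp to 0.01 for Tmem125, and without WT replicate 3 from 0.13 for Pllp to 0.37 for Gpr37. All 8 membrane genes were highest in WT replicate 3 and lowest in KO/+ replicate 4, a pattern that 4.4% of all genes tested showed. For all 8 the second highest library was KO/+ replicate 2.

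**Figure D2:**
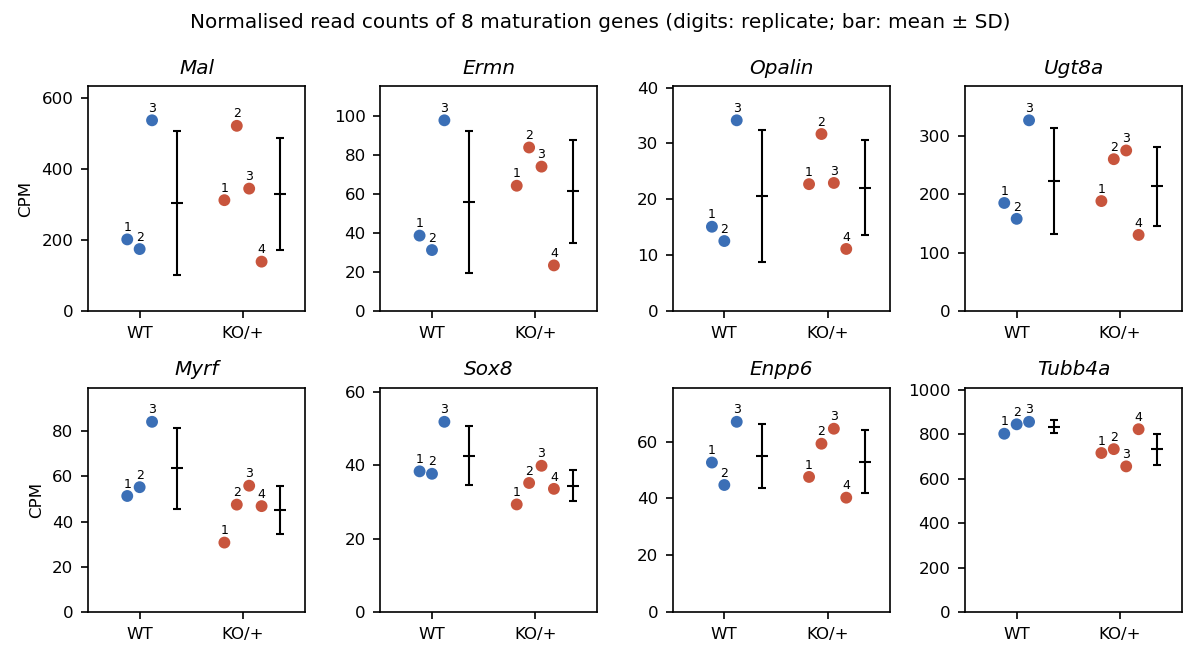
CPM of 8 maturation genes in each library, by genotype (WT and L3mbtl3 KO/+), with the replicate number above each point and the mean ± SD beside it, on linear axes from 0. For Mal, Ermn, Opalin and Ugt8a WT replicate 3 is far above WT replicates 1 and 2, and for Tubb4a the 7 libraries lie within a 1.31-fold range.

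Genes of lipid synthesis and metabolism followed the same libraries. Ugt8a, the enzyme that makes galactosylceramide, measured 185, 158 and 326 CPM in WT and 188, 260, 275 and 130 CPM in KO/+. Fa2h, which hydroxylates the fatty acids of myelin galactolipids, measured 63.7, 68.1 and 125 CPM in WT and 61.0, 86.6, 87.9 and 56.2 CPM in KO/+. Both were highest in WT replicate 3 and lowest in KO/+ replicate 4, with KO/+ replicates 2 and 3 between, so that the genotypes overlapped. Their log2 fold changes were -0.06 (SE 0.31) and -0.23 (SE 0.26), and 0.32 and 0.15 without WT replicate 3.

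Aspa, the aspartoacylase that frees acetate from N-acetylaspartate in oligodendrocytes, measured 11.0, 8.75 and 21.3 CPM in WT and 13.8, 19.3, 15.3 and 7.58 CPM in KO/+. Car2, carbonic anhydrase 2, measured 75.5, 79.7 and 127 CPM in WT and 101, 124, 102 and 65.4 CPM in KO/+. Both had WT replicate 3 and KO/+ replicate 2 at the top and KO/+ replicate 4 at the bottom, with log2 fold changes of 0.03 (SE 0.37) and 0.06 (SE 0.24), and 0.50 and 0.34 without WT replicate 3. Qdpr, the enzyme that regenerates tetrahydrobiopterin, ranged only 1.32-fold and was highest in KO/+ replicate 2, with a log2 fold change of 0.04, or 0.14 without WT replicate 3.

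The genes of the cytoskeleton and of signalling held both extremes. Ermn (chr2:58045113-58052864), the gene of ermin, an actin-binding protein of late oligodendrocytes, measured 38.7, 31.3 and 98.0 CPM in WT and 64.4, 84.0, 74.2 and 23.4 CPM in KO/+. WT replicate 3 was highest and KO/+ replicate 4 lowest, the highest library held 4.19 times the lowest, and the genotypes overlapped. The log2 fold change was 0.14 (SE 0.49), and 0.81 without WT replicate 3 (SE 0.46, edgeR adjusted p = 0.598). Tubb4a (chr17:57080066-57087782, minus strand), a beta-tubulin gene also used by neurons, measured 803, 845 and 857 CPM in WT and 716, 734, 656 and 823 CPM in KO/+. Here the order of libraries was another one: KO/+ replicate 3 was lowest, and KO/+ replicate 4 was the only KO/+ library above a WT library. The log2 fold change of Tubb4a was -0.19 (SE 0.10; edgeR unadjusted p = 0.094, adjusted p = 0.957), and -0.17 without WT replicate 3.

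Sirt2, a tubulin deacetylase found in myelin, measured 319, 281 and 401 CPM in WT and 277, 323, 317 and 254 CPM in KO/+. It was high in WT replicate 3, the genotypes overlapped, and the log2 fold change was -0.19 (SE 0.14), or -0.04 without WT replicate 3. Sirt2 overlaps Nfkbib (21.3 CPM) on the opposite strand. Ppp1r14a (an inhibitor of myosin phosphatase), Plekhb1 (a pleckstrin-homology protein) and Ndrg1 (mutated in an inherited neuropathy with loss of myelin) had log2 fold changes of 0.04, 0.12 and 0.04, and 0.43, 0.42 and 0.52 without WT replicate 3.

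Among secreted, matrix and chaperone genes Apod had the highest log2 fold change of the 30. Apod, apolipoprotein D, measured 88.2, 88.9 and 172 CPM in WT and 168, 211, 150 and 68.5 CPM in KO/+. KO/+ replicate 2 was its highest library, KO/+ replicate 1 stood near WT replicate 3, KO/+ replicate 4 lay below all WT libraries, and the genotypes overlapped. The log2 fold change was 0.36 (SE 0.38; edgeR unadjusted p = 0.368, adjusted p = 0.957), and 0.75 without WT replicate 3. Apod is also a gene of fibroblasts and meninges: the 10 marker genes of those cells summed to 397, 471 and 387 CPM in WT and to 316, 501, 494 and 519 CPM in KO/+. Their part in the level of Apod was not tested.

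Trf, transferrin, which carries iron, measured 365, 330 and 603 CPM in WT and 387, 493, 426 and 281 CPM in KO/+. Transferrin and Car2 are also made by choroid plexus, whose 10 marker genes summed to 45.0 CPM in WT replicate 1 and 49.3 CPM in WT replicate 3, but to 1058 CPM in WT replicate 2. In KO/+ they summed to 1462, 1058, 746 and 51.2 CPM in replicates 1 to 4. Trf and Car2 were highest in WT replicate 3, where choroid plexus genes were low. In KO/+ replicates 1 to 3, where choroid plexus genes were high, Trf and Car2 both exceeded WT replicate 1 and KO/+ replicate 4, where they were low. In WT replicate 2, also high in choroid plexus genes, Car2 was above WT replicate 1 and Trf below it. The part of choroid plexus in Trf and Car2 was not tested. Of the sequence of Trf, 59.4% in windows of 50 bases was shared with other genes, nearly all with the overlapping gene Gm20425 (0.741 CPM), so that its counts depend on how the authors' counting divided those reads. Its log2 fold change was -0.13 (SE 0.25), or 0.19 without WT replicate 3.

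Adamts4, a protease that cuts the proteoglycans of brain matrix, measured 60.1, 59.5 and 112 CPM in WT and 50.9, 73.2, 77.6 and 50.1 CPM in KO/+. WT replicate 3 alone was high in it, and the genotypes overlapped. Cryab, a small heat shock protein gene, measured 39.8, 37.3 and 57.2 CPM in WT and 42.9, 56.1, 47.0 and 35.5 CPM in KO/+. WT replicate 3 and KO/+ replicate 2 were again its highest libraries. The log2 fold changes were -0.29 (SE 0.26) for Adamts4 and 0.02 (SE 0.19) for Cryab, and 0.073 and 0.24 without WT replicate 3. For Hapln2, a link protein of the matrix at nodes of Ranvier, the log2 fold change was -0.15 (SE 0.34), or 0.22 without WT replicate 3.

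Compared per length, Tubb4a was the most abundant of the 30 at a mean of 620 TPM over the 7 libraries, ahead of Trf at 441 TPM, Cldn11 at 349 TPM, Sirt2 at 320 TPM, Apod at 239 TPM and Mal at 196 TPM. Myrf was the least abundant at 16.1 TPM. The 3 transcription factors lay between 16.1 and 22.5 TPM.

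Taking the 30 genes as a list, 18 had a negative and 12 a positive log2 fold change, and 51.2% of all genes tested were negative. The median was -0.06, against -0.005 over all genes. No maturation gene passed at an adjusted p under 0.05 (0% of all genes tested did) or at an unadjusted p under 0.05 (3.15% of all genes, edgeR), and DESeq2 and limma also called none at an adjusted p under 0.05. In none of the 30 did the genotypes separate without overlap, which 3.96% of all genes did. These results do not show that the genotypes were alike: standard errors ran from 0.10 to 0.50 on the log2 scale with a median of 0.28, against a median of 0.14 over all genes, and the 95% interval stayed within 1 log2 unit either way for 25 of the 30.

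**Figure D3:**
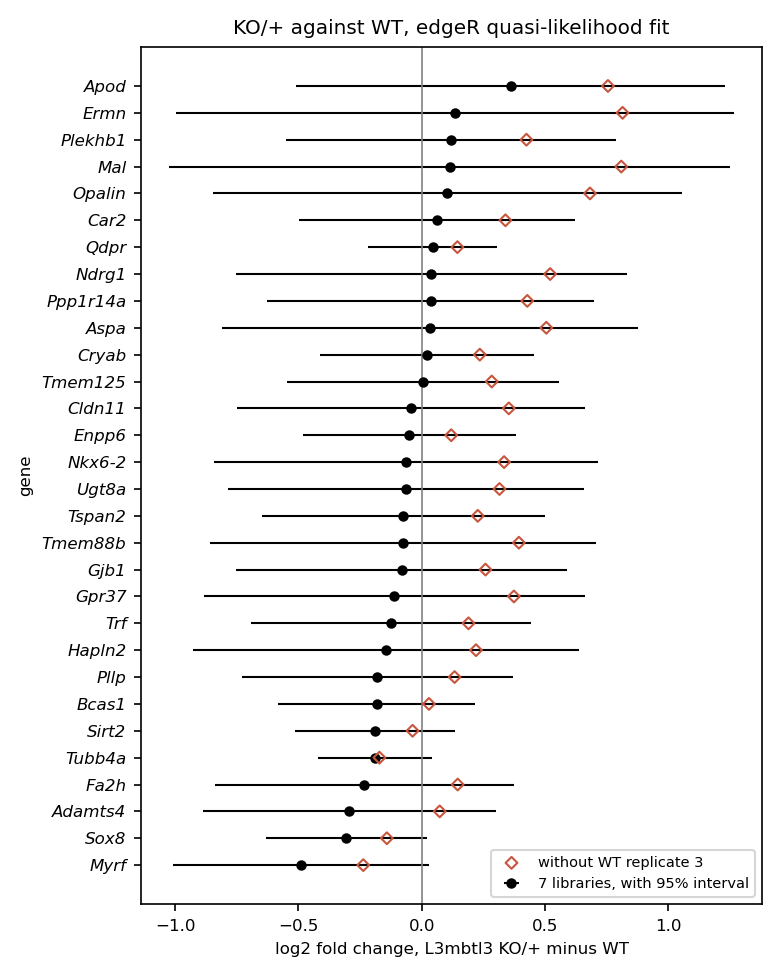
Log2 fold change of L3mbtl3 KO/+ against WT for each maturation gene: filled points with 95% intervals from all 7 libraries, open diamonds without WT replicate 3. Every interval reaches across 0, and all but 4 of the diamonds lie to the right of 0.

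Leaving out WT replicate 3 turned the direction of the list. With 6 libraries, 26 of the 30 log2 fold changes were positive, where 50.6% of all genes were, and the median was 0.27 against 0.003 over all genes. Myrf, Sox8, Sirt2 and Tubb4a were the 4 that stayed negative. No maturation gene passed in that fit either, at an adjusted or an unadjusted p under 0.05 (0.00589% and 5.75% of all genes passed), and none separated the genotypes without overlap (18.3% of all genes did). The differences between libraries were still there: 22 of the 30 genes were highest in KO/+ replicate 2 (21.8% of all genes) and 26 lowest in KO/+ replicate 4 (15.9%), and the median of the highest over the lowest library was 1.90.

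The order of the 7 libraries by their median level of the maturation genes was WT replicate 3, KO/+ replicates 2, 3 and 1, WT replicates 1 and 2, and KO/+ replicate 4. Relative to each gene's mean over the libraries, these medians were 0.61, 0.38, 0.18, -0.10, -0.21, -0.29 and -0.52 on the log2 scale. Each library was higher than the next in 27, 23, 27, 19, 25 and 30 of the 30 genes. Over all genes tested the shares were 48.1%, 50.1%, 50.2%, 49.5%, 51.6% and 49.8%. The order was set by these same 30 genes, so the counts describe it and do not test it. The closest neighbours in gene counts were KO/+ replicate 1 and WT replicate 1, at 19 of 30. WT replicate 3 was highest for 27 of 30 genes (23.1% of all genes) and KO/+ replicate 4 lowest for 26 (13.4%), and both held for 23 (4.4%). WT replicate 3 and KO/+ replicate 2 were the 2 highest libraries for 22 of the 30 genes (12.7% of all genes). WT replicates 1 and 2 and KO/+ replicate 4 were the 3 lowest for 19 (15.1%).

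Within WT, replicate 3 stood at a median of 1.83 times the mean of replicates 1 and 2, from 1.04 for Tubb4a to 2.86 for Mal. Within KO/+, replicate 2 stood at a median of 1.90 times replicate 4. It was higher in 29 of the 30 genes (50.6% of all genes tested), the exception being Tubb4a at 0.891. WT replicate 3 and KO/+ replicates 2 and 4 are extremes of their genotypes in the order set by these same genes. Both contrasts therefore describe that order and test nothing.

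**Figure D4:**
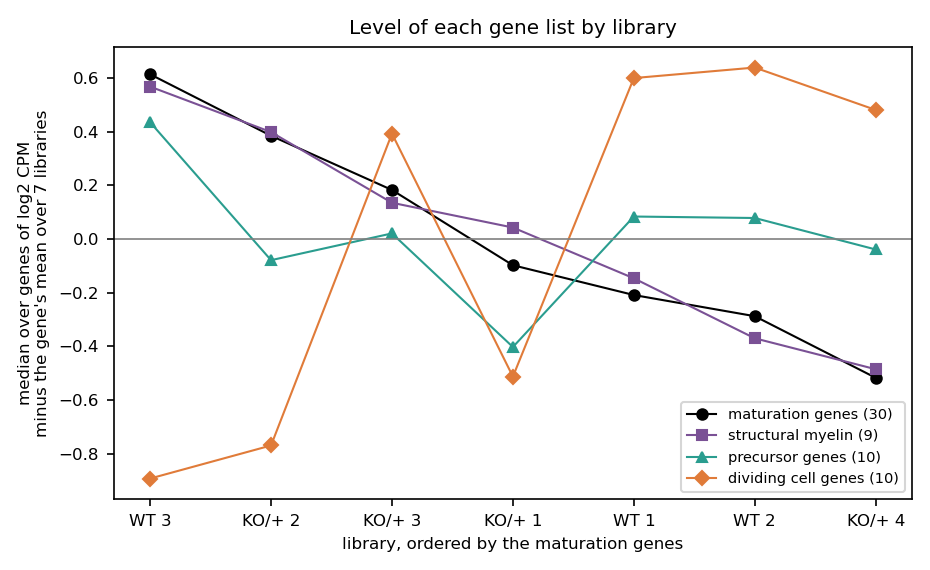
Median level of 4 gene lists in each library, as log2 CPM minus each gene's mean over 7 libraries, with libraries ordered from high to low maturation genes. By this median structural myelin genes keep the order of the maturation genes, while precursor genes and genes of dividing cells take other orders.

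The genes around the maturation list gave context. By their median, the 9 structural myelin genes had the same order of libraries, from 0.57 in WT replicate 3 to -0.48 in KO/+ replicate 4. Of the 9, 7 were highest in WT replicate 3 (23.1% of all genes) and 6 lowest in KO/+ replicate 4 (13.4%). Cntn2 ran the other way, at 684 CPM in KO/+ replicate 4, 377 CPM in WT replicate 3 and 368 CPM in KO/+ replicate 2. With KO/+ replicate 1 at 396 CPM, its lowest libraries were those lowest in genes of dividing cells. The part of cells other than oligodendrocytes in Cntn2 was not tested. The list had 5 positive and 4 negative log2 fold changes and a median of 0.01. Without WT replicate 3, 6 of the 9 were positive and the median was 0.30. Those with the smallest p were Nfasc (neurofascin, -0.43) and Mag (myelin-associated glycoprotein, -0.32). Neither passed, and without WT replicate 3 they were at -0.21 and -0.028. By their median, the 10 precursor genes were ordered otherwise: WT replicate 3 was highest at 0.43 and KO/+ replicate 1 lowest at -0.40, while KO/+ replicate 4 stood at -0.04. Of the 10, 8 were highest in WT replicate 3 (23.1% of all genes). Pdgfra and Vcan were not: they stood at 72.2 and 63.3 CPM there, against 93.9 and 92.7 CPM in WT replicate 1. All 10 had negative log2 fold changes (51.2% of all genes) with a median of -0.30. At an unadjusted p under 0.05, 3 of the 10 were lower (3.15% of all genes reached that p in either direction), and none passed after adjustment (edgeR). Without WT replicate 3, 9 of the 10 were negative, the median was -0.18, and 2 were lower at that unadjusted p (5.75% of all genes). Lhfpl3 was then positive at 0.094.

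Gpr17, a receptor of late precursors, measured 150, 133 and 182 CPM in WT and 72.2, 91.5, 123 and 125 CPM in KO/+. All KO/+ libraries were below all WT libraries, as the genotypes did not overlap for 2 of the 10 precursor genes and 3.96% of all genes. Its log2 fold change was -0.59 (SE 0.20, edgeR adjusted p = 0.957), or -0.46 without WT replicate 3. Ptprz1, a receptor phosphatase of precursors and astroglia, had a log2 fold change of -0.30 (SE 0.12, edgeR adjusted p = 0.957), or -0.17 without WT replicate 3. Among genes of committed and newly formed cells 7 of 11 were negative, with a median of -0.08 and 4 at an unadjusted p under 0.05 (3.15% of all genes), led by Itpr2 (an intracellular calcium channel, -0.53) and Tcf7l2. With WT replicate 3 left out, 6 of the 11 were negative, the median was -0.030, 1 was at that p (5.75% of all genes), and Itpr2 stood at -0.48. Tcf7l2 is also a thalamic gene and measured 49.2 CPM in WT replicate 3 against 3.07 to 5.58 CPM in the other 6 libraries. The lists share genes, so their counts are not separate. Gpr17 and Neu4 are on both the precursor and the committed lists. Tcf7l2 is also on the regulator list and the midbrain and thalamus list, and Sox6 is on the precursor and regulator lists.

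Of 19 regulators of the lineage 12 were negative, with a median of -0.10, and those with the smallest p were Tcf7l2 (-2.27) and Sox6 (-0.32). Without WT replicate 3 these were -0.33 and -0.15, with 12 of 19 negative and a median of -0.045. Of 22 genes of cholesterol and myelin lipid synthesis 17 were negative, with a median of -0.12, led by Lss (-0.27) and Fdps (-0.24), which make sterol precursors. When WT replicate 3 was left out, 15 of the 22 were negative, the median was -0.063, and these genes stood at -0.25 and -0.32. None of these lists held a gene that passed after adjustment (edgeR, 0% of all genes tested). Genes of dividing cells summed to 226 CPM in WT replicate 3 and to 262 and 237 CPM in KO/+ replicates 1 and 2, against 525 to 665 CPM in the other 4 libraries. Thus 2 of the 3 libraries highest in maturation genes were low in dividing cell genes, while KO/+ replicate 3 was high in both. The part of this in the maturation genes was not tested. The 10 brainstem genes summed to 39.1 CPM in WT replicate 3 and to 20.3 to 27.2 CPM elsewhere. Of the 39.1 CPM, 29.7 CPM was Slc6a5, which stood at 16.8 to 23.8 CPM in the other libraries, and 7.81 CPM was Th. Only 3 of the 10 had enough counts to be tested, so the sum describes these genes and not brainstem tissue.

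At the level of transcripts, 78 transcripts of the maturation genes were tested and none passed (edgeR, 0% of 44375 transcripts; 0 at an unadjusted p under 0.05, against 2.71%). The lowest unadjusted p was 0.0501 (edgeR adjusted p = 0.99972). The files also give the share of each gene's output that the authors' software assigned to each transcript, which for 15 of the 30 genes was at least 5% for more than 1 transcript. Hapln2-203, a transcript with a retained intron, took 56.5%, 55.0% and 43.1% of Hapln2 in WT and 35.0%, 44.7%, 42.6% and 48.1% in KO/+. The genotypes overlapped, and the means differed by -8.94 percentage points. Aspa-203 took 14.4%, 19.9% and 10.0% of Aspa in WT and 9.23%, 7.05%, 6.2% and 10.8% in KO/+, a difference of -6.46 points. It was low in all KO/+ libraries, but KO/+ replicate 4 lay above WT replicate 3. Aspa-203 had a mean of only 0.26 CPM, against 13.1 CPM for Aspa-201, so its shares rest on few assigned reads. Without WT replicate 3 the differences were -13.1 points for Hapln2-203 and -8.85 points for Aspa-203, and the genotypes then did not overlap for either, as for 12.5% of transcripts with a mean share of at least 5% (4.12% with all 7 libraries). Bcas1-208 (a mean 2.71 points above WT in KO/+, or 4.4 without WT replicate 3) and Trf-201 (2.35 points, or 1.97) overlapped between genotypes in both cases. No test accounted for the uncertainty of assigning reads to transcripts.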

How the data were processed

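RNA was extracted from whole cerebella of RNA integrity number 7 or more and made into directional poly(A) libraries, per the labels' protocols. The submitters' processing notes name bcl2fastq, Trimmomatic 0.39, STAR 2.5.2a, RSEM 1.3.1 and mm10/GRCm38. The strand setting is not given in the sources used here. Per the file headers, the authors deposited RSEM expected counts and TPM for each gene and transcript, and each transcript's isoform percentage (the percent of its gene's TPM). Expected counts were rounded, filtered with filterByExpr, scaled by TMM factors (0.978 to 1.02) and tested with edgeR 4.0.16 (robust quasi-likelihood fit, R 4.3.3) over all 7 libraries with no covariate. P-values were adjusted by Benjamini-Hochberg over all genes or transcripts tested, with a threshold of 0.05. The biological coefficient of variation was 18.7%. DESeq2 1.42.0, limma 3.58.1, other scalings and filters, a replicate block and leaving out each library were alternatives, and the edgeR step was tested on simulated data. Gene positions come from the GENCODE annotation of GRCm38. Values in each library are printed for the 8 genes with the smallest p, the 5 with the largest spread, and 12 genes listed by role. Of each surrounding list, the 2 genes with the smallest p were named. Tfap2d, Neu4 and the midbrain and thalamus list fall outside that rule. So do Cntn2, Lhfpl3, Otx2, Pdgfra, Vcan, Bcan and Th, which were named after the values were seen. The maturation genes and all lists were chosen with earlier results of these data known.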

Additional observations from a re-analysis of the deposited data

Results flagged for a closer look

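In the 4 KO/+ libraries, 5 values had 1 library standing apart, with a gap to its nearest neighbour that took up most of the group's range (Dixon's test at the 95% level). Chance flags about 1 in 20 such groups, and none of the 30 maturation genes was among the 5. The count of values examined is not given here, so that rate cannot be set against the 5. The 5 are not complete for the surrounding lists: Bcan, a precursor gene, stood at 135 CPM in KO/+ replicate 1 against 158 to 161 CPM in the other KO/+ libraries. KO/+ replicate 1 was low in the summed CPM of 3 lists. Meningeal and fibroblast genes summed to 316 CPM there and to 494 to 519 CPM in the other KO/+ libraries (gap 0.881 of the range). Brainstem genes summed to 20.3 CPM there and to 26.4 to 27.2 CPM in the others (gap 0.881). The midbrain and thalamus genes chosen after the data were seen summed to 3.47 CPM there and to 5.21 to 5.51 CPM in the others (gap 0.856). Aldh1l1, an astrocyte gene, was high in KO/+ replicate 4 at 117 CPM against 93.0 to 95.8 CPM (gap 0.884). Gdf10, a gene of Bergmann glia, was low in KO/+ replicate 3 at 289 CPM against 333 to 339 CPM (gap 0.875).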

How the results depend on the processing

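No maturation gene and none of their transcripts was called under any scaling, filter, tool, block or left-out library that was run. The count of all genes called was 0 under RLE, upper-quartile or no scaling, other filters, DESeq2 (597 at an unadjusted p under 0.05) and limma, 1 with the replicate block (1032 at an unadjusted p under 0.05), and 0 to 1 when each library was left out, being 1 without WT replicate 2, WT replicate 3 or KO/+ replicate 4. The maturation genes without overlap between genotypes numbered 0 to 2 when each library was left out: Tubb4a without WT replicate 1 (9.91% of all genes) or KO/+ replicate 4 (15.8%), and Myrf and Sox8 without KO/+ replicate 3 (7.48%). This left-out count, those of signs and medians, and the values of other lists and transcript shares without WT replicate 3 were chosen after seeing the data. Negative log2 fold changes numbered 4 to 29 of 30, and their median ran from -0.23 to 0.27, as 1 library was left out. It was positive without WT replicate 3 or KO/+ replicate 4. Myrf, Sox8, Sirt2 and Tubb4a stayed negative and Apod positive, while 25 genes changed sign, with log2 fold changes from lowest to highest of Adamts4 -0.46 to 0.073, Aspa -0.21 to 0.50, Bcas1 -0.30 to 0.029, Car2 -0.082 to 0.34, Cldn11 -0.23 to 0.35, Cryab -0.10 to 0.24, Enpp6 -0.18 to 0.12, Ermn -0.16 to 0.81, Fa2h -0.41 to 0.15, Gjb1 -0.24 to 0.26, Gpr37 -0.33 to 0.37, Hapln2 -0.33 to 0.22, Mal -0.20 to 0.81, Ndrg1 -0.19 to 0.52, Nkx6-2 -0.27 to 0.33, Opalin -0.16 to 0.68, Plekhb1 -0.061 to 0.42, Pllp -0.36 to 0.13, Ppp1r14a -0.16 to 0.43, Qdpr -0.021 to 0.14, Tmem125 -0.14 to 0.28, Tmem88b -0.29 to 0.39, Trf -0.30 to 0.19, Tspan2 -0.24 to 0.23 and Ugt8a -0.27 to 0.32. Deviations of same-numbered libraries from their genotype's mean correlated at r = 0.253, -0.109 and -0.205 for numbers 1 to 3. Differently numbered libraries gave r from -0.363 to 0.34. With 3 libraries of each genotype compared, these values cannot settle whether the numbers pair the libraries. With the replicate block on replicates 1 to 3, 8 log2 fold changes were negative, the median was 0.12, and these turned positive: Cldn11 0.17, Ugt8a 0.15, Tspan2 0.074, Gjb1 0.10, Enpp6 0.057, Tmem88b 0.17, Nkx6-2 0.17, Trf 0.043, Hapln2 0.043 and Gpr37 0.12. With limma on log2(TPM + 1), Aspa (-0.063), Cryab (-0.0063) and Tmem125 (-0.057) turned negative, as they did on log2(TPM + 0.1) (-0.067, -0.0063 and -0.060), and Tmem125 was -0.000106 with DESeq2. The cause of these changes was not tested, beyond the libraries that each fit leaves out. WT replicate 3 was highest for 25 to 28 of the 30 genes under the other scalings, filters and TPM. Each maturation gene had at least 224 counts in each library, and their median standard error was 0.28 on the log2 scale.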

Other observations

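Marker genes of other cell types were read from the same edgeR fit, in which no gene passed after adjustment (0% of all genes tested). All 6 granule neuron genes had positive log2 fold changes of KO/+ against WT, with a median of 0.31, led by Cbln1 (cerebellin 1, 0.31) and Slc17a7 (a vesicular glutamate transporter, 0.31). Of 10 meningeal and fibroblast genes 7 were positive, with a median of 0.26, led by Dcn (decorin, 0.40) and Aldh1a2 (a retinoic acid synthase, 0.46). All 10 choroid plexus genes were positive, with a median of 0.78, led by Kcnj13 (1.05) and Calml4 (1.07), and all of them except Otx2 were high in WT replicate 2 and KO/+ replicates 1 to 3 and low in the other 3 libraries. Of 8 astrocyte genes 6 were positive (median 0.05, led by Gdf10 at 0.20 and Aldh1l1 at -0.15), as were 4 of 6 endothelial genes (median 0.08, led by Cldn5 at 0.16 and Slco1c1 at 0.17) and 2 of 5 Schwann cell genes (median -0.17, led by Ncmap at 0.69 and Egr2 at -0.69). All 10 genes of dividing cells were negative, with a median of -0.29, led by Bub1b (a spindle checkpoint kinase, -0.54) and Mcm4 (a subunit of the replicative helicase, -0.31). The 3 brainstem genes tested were negative, with a median of -0.24, led by Slc6a2 (-0.64) and Slc6a5 (-0.17). Of the midbrain and thalamus genes only Tcf7l2 (-2.27) and Lhx9 (-3.61) had enough counts to be tested, and both values rest on WT replicate 3. Without that library Tcf7l2 stood at -0.33 and Lhx9 at 0.24. The medians without it were 0.25 for granule neuron genes (5 of 6 positive), 0.23 for meningeal and fibroblast genes (6 of 10), 0.44 for choroid plexus genes (8 of 10), 0.21 for astrocyte genes (6 of 8), 0.099 for endothelial genes (5 of 6), 0.26 for Schwann cell genes (3 of 5), 0.030 for brainstem genes (2 of 3) and -0.60 for genes of dividing cells (10 of 10 negative).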
